A study of Sus scrofa with 5 samples.

Results

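Macrophage nuclei without foam-cell genes were followed in single-nucleus RNA sequencing of the abdominal aorta of Ossabaw pigs, a miniature breed that becomes obese on rich diets. A nucleus was a member when it had at least 1 UMI of at least 3 of 11 macrophage genes (CD163, CSF1R, MSR1, SLC11A1, F13A1, TRPM2, GPR183, CD83, SRGN, RGS1 and P2RY12) and of fewer than 2 of 6 foam-cell genes (SPP1, GPNMB, MCOLN3, ATP6V0D2, LPL and NYAP2). The members were thus selected on their own measured counts of these 17 genes. A UMI is a tag that marks 1 captured RNA molecule. Of 45505 nuclei with at least 300 detected genes, 539 met the rule, or 1.18%. They came from 3 obese pigs on the HF/HFru diet (488 members) and 2 control pigs on chow (51 members), with 1 library per pig. All pigs were castrated males aged 12 months when the diet began. Its length is given as 6 months in one label and 9 months in another. A frozen piece of vessel of about 50 mm gave the nuclei of each pig, which were stained with DRAQ5, sorted and captured in a separate 10x reaction. No sort for leukocytes was named, so members are the macrophage-marked nuclei of the whole wall piece.

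Macrophages of the arterial wall are phagocytes that clear dying cells, cell debris and lipoproteins. Those that live in the outer wall are known for the mannose receptor MRC1 and the haemoglobin scavenger receptor CD163, while activated macrophages display CD83 and take up oxidised lipoprotein through OLR1. Macrophages that store lipid become foam cells and turn on lysosomal and lipid genes such as GPNMB and LPL, the genes by which the rule set nuclei aside.

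**Figure D1:**
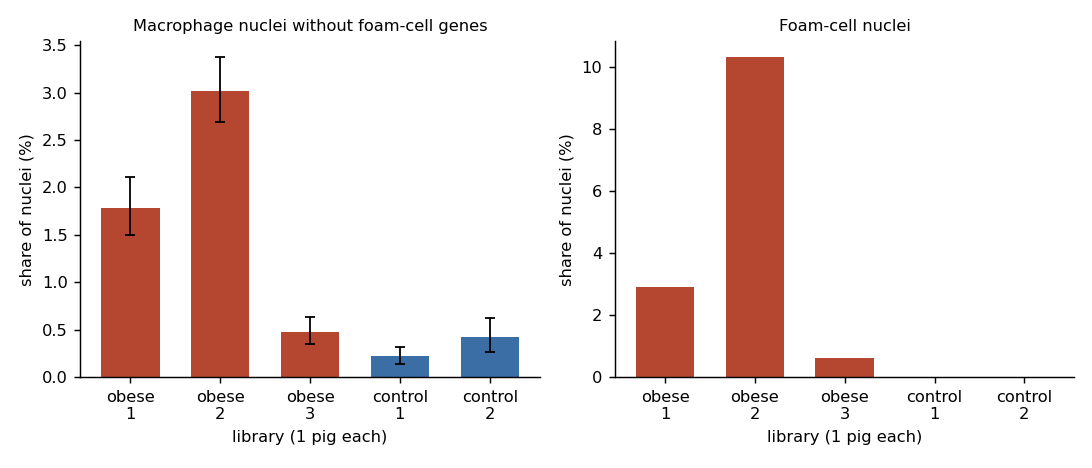
Share of all nuclei (%) that were macrophage nuclei without foam-cell genes (left, bars with exact 95% binomial intervals) and foam-cell nuclei (right), per library, with the 3 obese pigs to the left of the 2 control pigs. Members made up 1.79, 3.02 and 0.479% of nuclei in obese pigs and 0.220 and 0.421% in control pigs, and foam-cell nuclei were counted in the obese libraries only.

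Members numbered 136, 305 and 47 in obese replicates 1 to 3, against 27 and 24 in control replicates 1 and 2. Their share of all nuclei was 1.79% (exact 95% binomial interval 1.50 to 2.11), 3.02% (2.69 to 3.37) and 0.479% (0.352 to 0.637) in the obese pigs. In the control pigs the share was 0.220% (0.145 to 0.320) and 0.421% (0.270 to 0.626). Each obese pig had a larger share than either control pig, but the interval of obese replicate 3 overlapped that of control replicate 2. The obese mean was 1.76% ± 1.27 (SD, n = 3) and the control mean 0.321% ± 0.142 (SD, n = 2). The difference of 1.44 percentage points gave p = 0.2, two-sided, by exact permutation of the pigs, the smallest p this design can give. These intervals and all floors cover counting error only, and a share of nuclei does not separate more macrophages from fewer nuclei of other types.

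Foam-cell nuclei, which met the macrophage part of the rule and had at least 2 foam-cell genes, numbered 221, 1042 and 62 in the obese libraries. None was found in the control libraries, where a count of 0 allows a share of up to 0.0244% in replicate 1 and 0.0527% in replicate 2. Members were therefore 38.1, 22.6 and 43.1% of the nuclei with 3 macrophage genes in obese pigs, and all of them (100%) in both control pigs. Depth moves nuclei across this line. When each nucleus was thinned to 1000 UMIs, 38.3, 50.4 and 38.7% of the members found in obese replicates 1 to 3 had been foam-cell nuclei at full depth. The thinned share of members was 1.43, 3.35 and 0.413% in obese pigs and 0.107 and 0.122% in control pigs, with 1952, 2057 and 2302 shallower nuclei left out for obese pigs and 1958 and 789 for control pigs.

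At the edges of the rule, 235 members had exactly 3 of the macrophage genes and 721 nuclei with fewer than 2 foam-cell genes had 2 and stayed out. Their median depths were 1679 and 2049 UMIs. On the foam-cell side, 241 members had exactly 1 foam-cell gene with a median of 2075 UMIs, and 311 nuclei had exactly 2 with a median of 2673 UMIs. Members without any foam-cell gene numbered 298. The members with exactly 1 were 69, 149 and 21 in obese replicates 1 to 3, and 2 and 0 in control replicates 1 and 2. Those with none were 67, 156 and 26 in the obese and 25 and 24 in the control replicates. Members of obese pigs thus carried a foam-cell gene far more often than those of control pigs. The rule used these genes, so this is a description. SPP1 was found in 19.1, 11.1 and 19.1% of obese and 0% of control members. In nuclei with at least 5 smooth muscle markers it was found in 4.70, 10.3 and 1.47% in obese and 0 and 0.0290% in control libraries. The part of such RNA in the difference between members was not tested.

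The libraries held 22400089 to 47724416 UMIs in all, and members held 144139 to 841614 UMIs in obese and 108474 to 128660 in control libraries. Median depth per member was 2797, 1837 and 2228 UMIs in obese pigs and 3920 and 2432.5 UMIs in control pigs. The median of all other nuclei was 1819, 2261 and 1852 UMIs in obese and 2703 and 2491 in control libraries. Of 45305 distinct barcodes, 198 occurred in more than 1 library. Among members, 2 barcodes also occurred in another library, in neither case as a member.

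The name was checked against 6 macrophage markers (CD163, CSF1R, F13A1, MRC1, CD83 and GPR183) by clustering the members into 8 clusters. A marker counted when it reached 20 CPM (counts per 1000000 summed UMIs) and at least 2 times its lower quartile over clusters. The cut is relative, so for each marker the lowest clusters fail it whatever their level. Clusters 1, 3, 4, 5 and 7 passed at least 4 of the 6 markers and held 378 members, or 70.1%. Clusters 2, 6 and 8 failed this cut and held 161 members, or 29.9%. That is a lower level in CPM and no absence of the markers. A marker was found in a mean of 35.6, 28.75 and 20.8% of nuclei in clusters 2, 6 and 8. In the clusters that passed, this mean ran from 31.4% in cluster 1 to 59.3% in cluster 3, so cluster 2 lay within their range. Median depth was 3473 UMIs in cluster 2 and 931 UMIs in cluster 1. Clusters 2 and 6 were led by STK32B and ERBB4, and by CTNNA3, RGS6 and PDE1C, and 54.1 and 85% of their nuclei had at least 5 markers of smooth muscle, the main cell type of the aorta. Cluster 8 held 12 nuclei, was T/NK-like with 10 of 13 T and NK cell markers, and was led by LEF1, BCL11B and SKAP1. Clusters 1, 3, 4, 5 and 7 held 50.7, 75.4 and 78.7% of the members in obese pigs and 77.8 and 87.5% in control pigs. Clusters 2 and 6 held 47.1, 22.6 and 19.1% in obese pigs and 14.8 and 12.5% in control pigs. In obese replicate 1 about as many members sat in the clusters that failed the cut as in those that passed it. Clusters 1, 3, 4, 5 and 7, called the marker-bearing clusters here, were therefore also read alone.

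**Figure D2:**
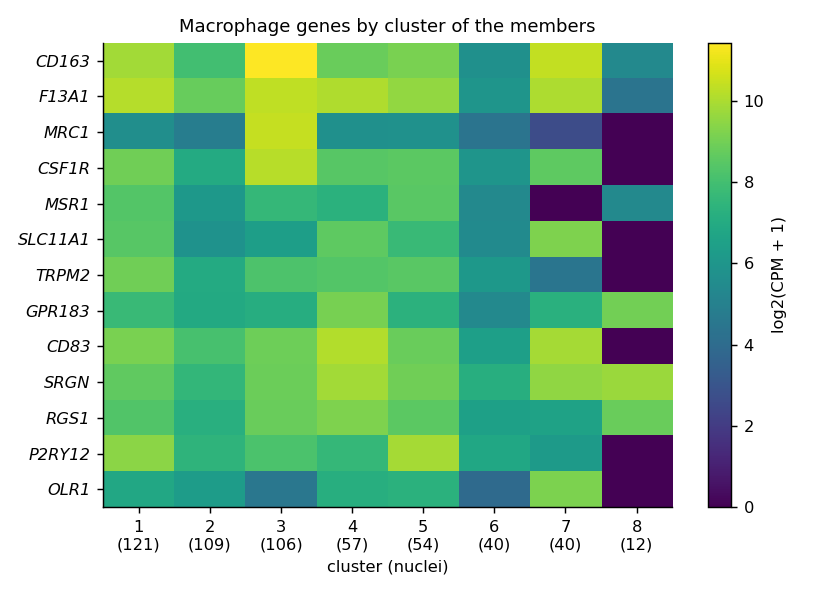
Level of 13 macrophage genes (rows, log2(CPM + 1)) in the 8 clusters of members (columns, with the number of nuclei in brackets). Cluster 3 stands out by MRC1, cluster 7 by OLR1 with MSR1 at 0 CPM, and clusters 2, 6 and 8 are low for most of the genes.

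The marker-bearing clusters differed in which markers they carried. These levels describe how the members group and are no test, since every gene entered the clustering. Cluster 3 (106 nuclei) was resident-macrophage-like, with 15 of 22 resident markers. Clusters 5 and 1 had nearly as many, with 14 and 13, so the count does not set cluster 3 apart. MRC1 stood at 1375 CPM there against 30.3 CPM in all other members, and STAB1, a scavenger receptor that clears modified lipoproteins and matrix fragments, at 727 against 40.0 CPM. CSF1R, the receptor for the survival factor of macrophages, was at 1165 CPM, its highest level over the clusters, and OLR1 was at 21.9 CPM. COLEC12, MS4A7, LSAMP and HS3ST2 were among its 10 leading genes, and 87.0% of all MRC1 counts of the members fell in it. MS4A2, a mast cell gene, was also among them at 74.5 CPM.

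Cluster 7 (40 nuclei) carried 15 of 23 inflammatory markers and 7 of 22 resident ones. It was led by TBXAS1, thromboxane synthase, at 1793 CPM against 39.0 CPM in all other members, followed by PLVAP, GCNT3, ADGRG3, ADGRG1 and HPGD, which breaks down prostaglandins. OLR1 reached 586 CPM, SLC11A1, a metal transporter of the phagosome, 601 CPM, and MRC1 only 5.23 CPM. MSR1, the class A scavenger receptor, had 0 counts in all of its nuclei. CD163 was at 1338 CPM there, but in 32.5% of its nuclei, against 85.8% of the nuclei of cluster 3.

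Clusters 1, 4 and 5 were kept by number. Cluster 1 (121 nuclei) had a median of only 931 UMIs and was led by LPL, a lipase counted among the foam-cell genes, with FMN2 and KIRREL3. LPL was at 121 CPM there, against 9.15 CPM in all other members, and 60.3% of its nuclei had exactly 1 foam-cell gene. Cluster 5 (54 nuclei) was led by CD101, GPC5, PHEX and IGF1, with the highest level of P2RY12, a purine receptor, at 942 CPM, and 72.2% of its nuclei had exactly 1 foam-cell gene. Cluster 4 (57 nuclei) was led by BCL11A, SLC9A7 and FLT3, the receptor that drives dendritic cell development. These 3 genes were found in only 6, 10 and 8 of its nuclei, and in obese replicate 3, 1 member held all 39 FLT3 counts. Cluster 4 had 5 of 10 dendritic and 10 of 23 inflammatory markers, while cluster 3 had 6 of the dendritic and 8 of the inflammatory ones. CD83 was at 1111 CPM in cluster 4 and GPR183, a receptor that guides leukocytes along oxysterols, at 539 CPM.

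**Figure D3:**
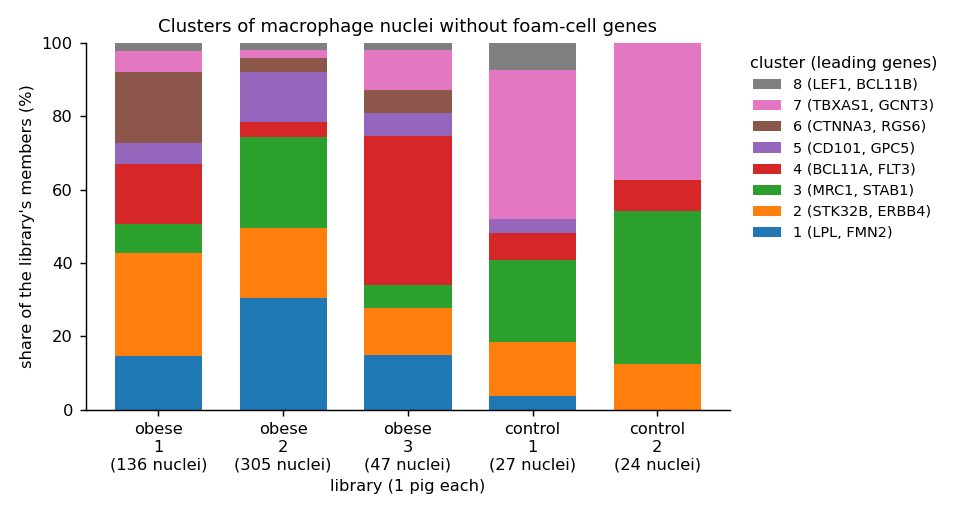
Share of each library's members (%) in the 8 clusters, stacked, with the 3 obese pigs to the left of the 2 control pigs and the number of members under each bar. Obese replicate 2 put 30.5% of its members in cluster 1 and obese replicate 1 put 47.1% in clusters 2 and 6, while both control pigs had 1 member or none in cluster 1.

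The members of control replicate 2 fell in only 4 of the 8 clusters, and many clusters held too few members of a pig to describe it. Cluster 3 held 11, 76 and 3 members of obese replicates 1 to 3, and 6 and 10 of the control replicates. Cluster 7 held 8, 7 and 5 members of the obese and 11 and 9 of the control replicates. Cluster 4 held 22, 12 and 19 members of the obese and 2 and 2 of the control replicates. Genes that define cluster 7 also differed between the diets, so its size is no separate result.

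The resident profile (MRC1, F13A1 and CD163) and the inflammatory profile (CD83 and OLR1) were then read in each library. Counts were summed over the members of a pig and given as CPM of those sums. CD163, F13A1 and CD83 also chose the members, so their levels are a description. MRC1, which the rule did not use, was at 62.8, 265 and 20.8 CPM in obese replicates 1 to 3, against 552 and 267 CPM in control replicates 1 and 2. All obese pigs lay below both control pigs, but obese replicate 2 and control replicate 2 were almost level. A UMI of MRC1 was found in 11, 59 and 3 obese members per library, against 8 and 9 control members. That is 8.09, 19.3 and 6.38% of obese members against 29.6 and 37.5% of control members. In nuclei with smooth muscle markers, which should lack MRC1, the share was 1.27, 1.24 and 0.838% in obese and 0.635 and 1.19% in control libraries. Those nuclei had median depths of 3236, 3594 and 2781 UMIs in obese and 3867 and 3568.5 UMIs in control libraries.

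The MRC1 difference rested on few nuclei in the control pigs. The nucleus with the most MRC1 gave 45.1 and 37.9% of the counts in the control libraries, and 20, 7.17 and 33.3% in the obese libraries. Without that nucleus in each library MRC1 was at 50.5, 247 and 13.99 CPM in obese pigs and 314 and 168 CPM in control pigs, so the groups overlapped. In clusters 1, 3, 4, 5 and 7 alone they overlapped too, at 158, 451 and 32.0 CPM in obese pigs and 713 and 342 CPM in control pigs. The quasi-likelihood F-test of edgeR across all genes gave MRC1 a log2 fold change of -1.67 (SE 0.77) and an adjusted p of 0.331.

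OLR1, the other profile gene outside the rule, was at 87.9, 64.2 and 222 CPM in obese pigs and 692 and 36.9 CPM in control pigs. The control pigs were the highest and the lowest of all, and 1 nucleus gave 43.8% of the OLR1 counts of control replicate 1. A UMI of OLR1 was found in 15.4, 9.51 and 17.0% of obese members and in 25.9 and 8.33% of control members. In nuclei with smooth muscle markers the share was 0.881, 1.33 and 0.343% in obese and 0.0847 and 0.0290% in control libraries. The log2 fold change was -1.64 (SE 0.89) with an adjusted p of 0.428 in edgeR.

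**Figure D4:**
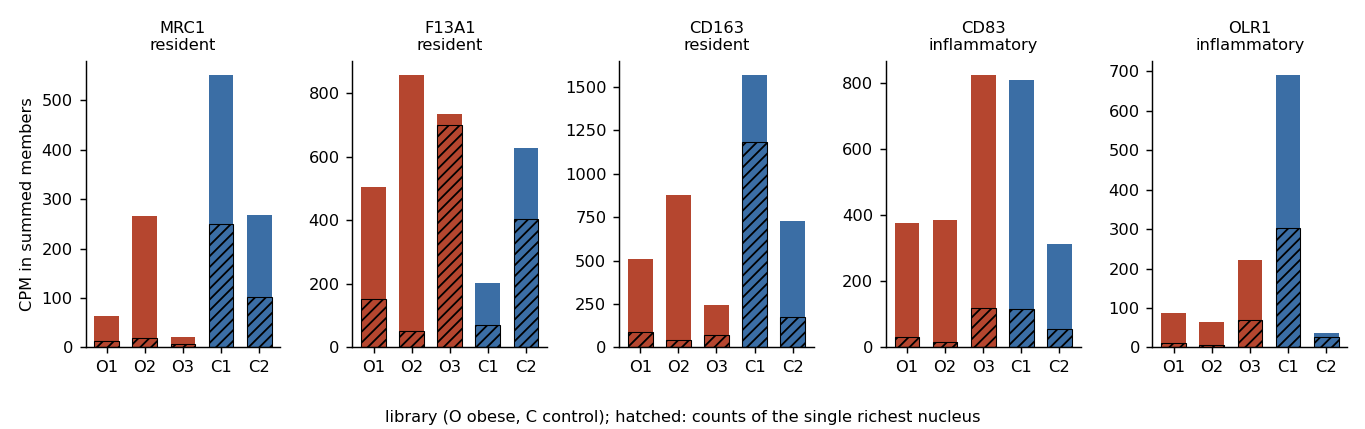
Level (CPM of the summed members, linear axes) of the resident genes MRC1, F13A1 and CD163 and the inflammatory genes CD83 and OLR1 in the 3 obese pigs (O1 to O3) and the 2 control pigs (C1, C2). The hatched part of a bar is the count of the single nucleus richest in that gene, which reached 95.3% for F13A1 in O3 and 75.2% for CD163 in C1.

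Among the profile genes that the rule used, CD163 was at 506, 876 and 243 CPM in obese pigs and 1570.0 and 728 CPM in control pigs. In control replicate 1, 1 nucleus held 75.2% of these counts, and without it CD163 stood at 463 CPM. F13A1, the A subunit of coagulation factor XIII, was at 504, 859 and 735 CPM in obese pigs and 202 and 627 CPM in control pigs. In obese replicate 3, 1 nucleus held 95.3% of the F13A1 counts, and the level without it was 36.6 CPM. CD83 was at 375, 386 and 826 CPM in obese pigs and 808 and 313 CPM in control pigs, with at most 17.6% of a library's counts from 1 nucleus. For these 3 genes the groups overlapped.

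Most members carried RNA of 1 profile or of both. In obese replicate 1, 37 members had UMIs of resident genes only, 38 of inflammatory genes only, 43 of both and 18 of neither. Obese replicate 2 had 145, 21, 117 and 22 members in the same classes, and obese replicate 3 had 8, 17, 13 and 9. Control replicate 1 had 8, 4, 12 and 3, and control replicate 2 had 10, 8, 5 and 1. Obese replicate 2 leaned to the resident genes and obese replicate 3 to the inflammatory ones. Per count of an inflammatory gene there were 2.32, 4.44 and 0.954 counts of resident genes in the obese pigs and 1.55 and 4.63 in the control pigs. After thinning these ratios were 2.47, 4.07 and 0.805 in obese pigs and 1.46 and 9 in control pigs, so the order of the pigs within each diet held.

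MRC1 and OLR1, which the rule did not use, were also set against each other. The measure was log2 of the ratio of their CPM, each with 1 CPM added. The ratio was -0.48, 2.03 and -3.35 in the obese pigs and -0.33 and 2.82 in the control pigs. The obese mean of this ratio was -0.60 ± 2.69 (SD, n = 3) and the control mean 1.25 ± 2.23 (SD, n = 2). The difference of -1.85 gave p = 0.4 in the exact two-sided permutation test, whose smallest p is 0.2. Pigs of the same diet thus differed by more than the diets did, and no shift between the profiles was detectable in members with 5 pigs. The rule still bears on this ratio, since it set aside foam-cell nuclei, which were counted in obese pigs only. With them included the ratio was -2.57, -1.43 and -4.47 in the obese pigs, below both control pigs. That difference of -4.07 gave p = 0.2 in the same permutation test.

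The remaining rule genes are described without a test. MSR1 was at 75.4, 184 and 222 CPM in obese pigs and 23.3 and 18.4 CPM in control pigs. TRPM2, a calcium channel of oxidative stress, was at 183, 234 and 278 CPM in obese pigs and 62.2 and 27.7 CPM in control pigs. SLC11A1 ran the other way, at 86.1, 158 and 257 CPM in obese pigs and 513 and 387 CPM in control pigs. RGS1 was at 280, 253 and 333 CPM in obese pigs and 109 and 194 CPM in control pigs. P2RY12 was at 124, 469 and 208 CPM in obese pigs and 117 and 73.8 CPM in control pigs, but overlapped in the marker-bearing clusters alone. CSF1R was at 154, 467 and 347 CPM in obese and 295 and 489 CPM in control pigs, with overlap. GPR183 (131, 154 and 458 against 171 and 111 CPM) and SRGN (413, 308 and 805 against 801 and 175 CPM) overlapped too. Of the foam-cell genes, SPP1, the secreted protein osteopontin, was at 113, 73.7 and 278 CPM in obese members and had 0 counts in the control members. GPNMB, a lysosomal membrane protein, was at 12.6, 109 and 0 CPM in obese members and 7.77 and 0 CPM in control members. LPL, NYAP2 and ATP6V0D2 were at no more than 29.7 CPM in any library. These are counts left in nuclei that the rule allowed 1 such gene.

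**Figure D5:**
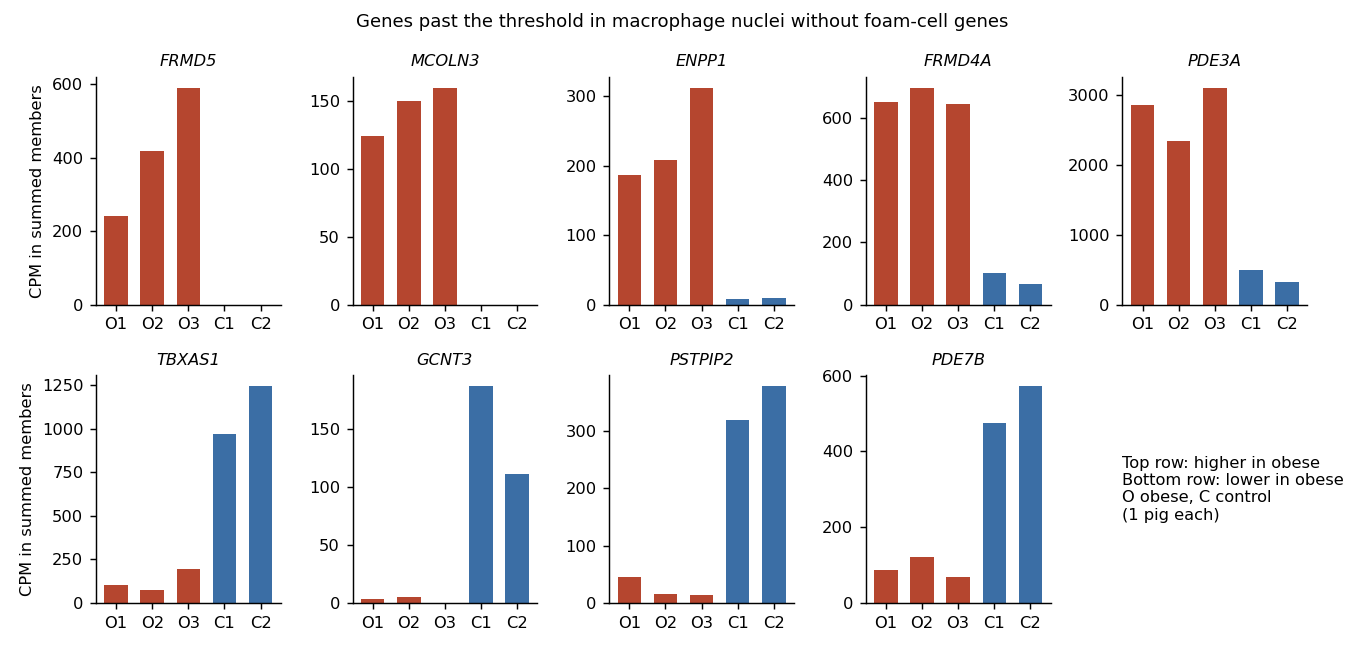
Level (CPM of the summed members, linear axes) of the 9 genes past an adjusted p of 0.05 in edgeR, in the 3 obese pigs (O1 to O3) and the 2 control pigs (C1, C2). The upper 5 genes were higher and the lower 4 genes lower in every obese pig than in both control pigs. MCOLN3 is a foam-cell gene of the rule and is shown as a description.

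The diet comparison in members asked which genes differed between obese and control pigs. Of 3558 genes that passed the filter on low counts, 9 were called at an adjusted p under 0.05 in edgeR (0.253%). Of these, 5 were higher in obese pigs (0.141% of the genes tested) and 4 were lower (0.112%). MCOLN3, 1 of the 5, is a foam-cell gene of the rule, so its call is a description and no test. The adjusted p ran from 0.0369 to 0.0435, and 569 genes had an unadjusted p under 0.05. The calls are thus close to the threshold. None remained called when only clusters 1, 3, 4, 5 and 7 were used, with 362 of 2561 genes at an unadjusted p under 0.05 and a smallest adjusted p of 0.0507, although all 9 kept their direction. Leaving out obese replicate 1, 2 or 3 gave 2, 0 and 0 calls. Leaving out control replicate 1 gave 0, and leaving out control replicate 2 gave 9, of which 1 was among these 9. P-values here measure the spread between 5 pigs, and the 51 control members set its precision.

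Of the 4 genes lower in obese pigs, 3 were among the 15 leading genes of cluster 7. TBXAS1, which makes thromboxane A2, fell to 100.5, 72.5 and 194 CPM in obese pigs, against 972 and 1245 CPM in control pigs. Its log2 fold change was -3.23 (SE 0.45, adjusted p = 0.0369 in edgeR), and the highest obese pig was far below the lowest control pig. TBXAS1 was found in 17, 31 and 7 obese members and in 12 members of each control pig, and no nucleus held more than 32.1% of a library's counts. Cluster 7 held 84.7% of the TBXAS1 counts of all members. Inside that cluster TBXAS1 was at 1067, 1624 and 1419 CPM in obese pigs and 1994 and 2247 CPM in control pigs, and outside it at 28.9, 37.7 and 15.9 CPM in obese pigs and 128 and 98.8 CPM in control pigs.

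GCNT3, an enzyme that branches mucin-type sugar chains, was at 3.59, 4.75 and 0 CPM in obese pigs and 187 and 111 CPM in control pigs, a log2 fold change of -5.17 (SE 0.75). PSTPIP2, an adaptor that binds curved membrane and restrains inflammation in mice, was at 44.9, 15.4 and 13.9 CPM in obese pigs and 319 and 378 CPM in control pigs, with -3.67 (SE 0.54). PDE7B, a phosphodiesterase that degrades cyclic AMP, was at 86.1, 122 and 69.4 CPM in obese pigs and 474 and 572 CPM in control pigs, with -2.42 (SE 0.37) and an adjusted p of 0.0435 in edgeR. None of these groups overlapped. TBXAS1, GCNT3 and PSTPIP2 were the 3 that led cluster 7, which held 88.1% of the GCNT3 counts, 72.1% of the PSTPIP2 counts and 37.7% of the PDE7B counts. In sums over nuclei, fewer nuclei of a kind and less RNA per nucleus cannot be told apart.

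Genes on the same side that narrowly missed the threshold, and were not called, are given as values. PTPRC, the common leukocyte antigen CD45, was at 68.2, 108 and 97.1 CPM in obese pigs and 443 and 415 CPM in control pigs. Its log2 fold change was -2.20 (SE 0.37) with an adjusted p of 0.0557. ADGRG1, an adhesion receptor, was at 12.6, 7.13 and 13.9 CPM in obese pigs and 85.5 and 249 CPM in control pigs, at -3.94 with an adjusted p of 0.0696. PTPRC marks leukocytes of all kinds, and its level in the other nuclei was 8.43, 45.8 and 4.16 CPM in obese and 14.6 and 5.70 CPM in control libraries.

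Among the genes higher in obese pigs, FRMD5, ENPP1 and MCOLN3 had few or no counts in the control members. FRMD5, a membrane-linked cytoskeletal protein, was at 240.4, 417 and 590 CPM in obese members and had 0 counts in both control pigs, at least 29.2-fold higher against a floor of 3 counts over the control group. Its counts came from 45, 98 and 20 nuclei. In foam-cell nuclei it stood at 495, 1518 and 1106 CPM. ENPP1, which splits ATP to the calcification inhibitor pyrophosphate, was at 187, 208 and 312 CPM in obese members, against 7.77 and 9.22 CPM or 1 count in each control pig. The ratio of pooled counts was 24.9 (95% counting interval 6.84 to 206), and foam-cell nuclei had 765, 1454 and 1215 CPM. MCOLN3, a cation channel of endosomes and lysosomes, is a foam-cell gene of the rule. It is given as a description, at 124, 150 and 160 CPM in obese members and 0 counts in control members, at least 11.2-fold higher.

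The other 2 genes that rose, FRMD4A and PDE3A, are abundant in the rest of the wall. FRMD4A, a scaffold protein of cell polarity, was at 649.6, 695 and 645 CPM in obese members and 101 and 64.5 CPM in control members (log2 fold change 3.02, SE 0.41). In all other nuclei it was at 728, 767 and 631 CPM in obese and 629.5 and 762 CPM in control libraries, and in foam-cell nuclei at 835, 985 and 744 CPM. FRMD4A in the marker-bearing clusters alone was at 426, 735 and 598 CPM in obese members and 95.8 and 61.1 CPM in control members, so its gap stayed. PDE3A, a phosphodiesterase abundant in smooth muscle, was at 2860.2, 2338 and 3101 CPM in obese members and 489.7 and 323 CPM in control members (2.80, SE 0.40), with an adjusted p of 0.0369 for both in edgeR. In all other nuclei it was at 4284, 3805 and 3553 CPM in obese and 3312 and 3153 CPM in control libraries, and in foam-cell nuclei at 2231, 706 and 1001 CPM. PDE3A in the marker-bearing clusters alone was at 1132, 752 and 1687 CPM in obese members and 383 and 159 CPM in control members. ANKH, which exports ATP and pyrophosphate and narrowly missed the threshold (adjusted p = 0.0537), was at 310.4, 417 and 236 CPM in obese members and 23.3 and 0 CPM in control members. Its ratio of pooled counts was 28.6 (9.73 to 139).

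The summed markers of smooth muscle, endothelial cells and fibroblasts were also higher in every obese pig than in both control pigs. So were those of kidney tubule, at 50.2, 52.3 and 41.6 CPM in obese members and 0 CPM in control members. In all other nuclei the kidney tubule markers were at 41.4, 46.6 and 30.8 CPM in obese and 41.9 and 31.5 CPM in control libraries. Those of T and NK cells, B and plasma cells, Schwann cells, adipocytes, neutrophils and mast cells overlapped in members. The summed level of 9 measured smooth muscle markers in members was 4805, 3917 and 4232 CPM in obese pigs and 3179 and 3448 CPM in control pigs, against 8599, 6758 and 11409 CPM in obese and 9404 and 10529.6 CPM in control libraries for all other nuclei. All 8 smooth muscle markers tested had positive log2 fold changes, with a median of 0.29. Of these, 3 had all obese pigs above both control pigs (MYH11, ACTA2 and CACNA1C). In the marker-bearing clusters alone these 3 overlapped, 0 of the 8 lay above and 1 (KCNMA1) lay below. The 12 endothelial markers summed to 852, 671 and 826 CPM in obese members and 210 and 369 CPM in control members. In obese members most of that was ERG, an endothelial transcription factor, at 598, 480.0 and 617 CPM. In control members ERG was at 62.2 and 157 CPM, the smaller part of the sum. ERG overlapped in the marker-bearing clusters, at 256, 129 and 406 CPM in obese and 63.9 and 183 CPM in control members. KDR was at 1.79, 0 and 0 CPM in obese members and 0 CPM in control members. The 9 fibroblast markers summed to 488, 441 and 604 CPM in obese members and 303 and 249 CPM in control members. T and NK markers ran from 169 to 569 CPM in obese members and from 18.4 to 832 CPM in control members, and neutrophil markers from 3.56 to 13.9 CPM in obese and from 0 to 9.22 CPM in control members. Mast cell markers summed to 14.4 to 76.3 CPM in obese and 36.9 to 62.2 CPM in control members. None of the 18 genes tested from the lists of other cell types was called in edgeR, 3 had an unadjusted p under 0.05, DESeq2 called ERG and limma-voom none. The part of these RNAs in the results for FRMD4A and PDE3A was not tested.

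The wider macrophage lists were read against the whole table. Beside the rule genes they held 94 tested genes, of which edgeR called 0 and 21 had an unadjusted p under 0.05 (22.3%), against 15.99% of all genes tested. DESeq2 called CTSD, HSPH1, PLCG2, SYK and ZBTB16, and limma-voom none. Counts of genes whose groups do not overlap are read against all genes tested, of which 16.2% had all obese pigs above and 18% all obese pigs below both control pigs. The shares in the marker-bearing clusters alone were 15.5% above and 15.3% below. The median log2 fold change of all genes was 0.02.

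Genes of phagocytosis and the clearance of dying cells mostly had lower values in obese members. Of 20 listed genes 15 were measured and 8 tested, and 6 of the 8 had all obese pigs below both control pigs while 1 (AXL) had all above, with a median log2 fold change of -1.19. SYK, the kinase behind phagocytic receptors, was at 102, 211 and 201 CPM in obese pigs and 707 and 535 CPM in control pigs (-1.84, SE 0.40, adjusted p = 0.086 in edgeR). PLCG2, the phospholipase downstream of SYK, was at 89.7, 175 and 104 CPM in obese pigs and 373 and 535 CPM in control pigs, at an adjusted p of 0.09. DOCK8, which drives leukocyte movement, was at 282, 526 and 361 CPM in obese pigs and 1228 and 645 CPM in control pigs. ELMO1, the engulfment partner of DOCK proteins, was at 680.1, 1536 and 1179 CPM in obese pigs and 1554 and 1705 CPM in control pigs. ITGAM, an integrin that binds complement-coated particles and is also on the complement list, was at 35.9, 70.1 and 13.9 CPM in obese pigs and 319 and 101 CPM in control pigs. In the marker-bearing clusters alone 4 of the 8 genes lay below (ITGAM, DOCK2, PLCG2 and SYK) and 1 above (MERTK), while AXL, ELMO1 and DOCK8 overlapped. DOCK8 was at 523, 814 and 512 CPM there in obese pigs and 1459 and 758 CPM in control pigs. SYK was at 237, 328 and 246 CPM there in obese pigs and 873 and 685 CPM in control pigs.

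Antigen presentation genes gave a similar picture on fewer genes. Of 14 listed, 10 were measured and 6 tested, 3 had all obese pigs below both control pigs and none above, and the median log2 fold change was -0.97. HLA-DRA, as the files name this class II chain, was at 73.6, 41.6 and 132 CPM in obese pigs and 194 and 323 CPM in control pigs (-1.72, adjusted p = 0.176 in edgeR). CIITA, the master activator of class II genes, was at 64.6, 93.9 and 208 CPM in obese pigs and 249 and 212 CPM in control pigs. The costimulatory receptor ligand CD86 overlapped, at 135, 179 and 687 CPM in obese pigs and 521 and 765 CPM in control pigs, and so did CD80, at 106, 140.2 and 347 CPM in obese pigs and 210 and 221 CPM in control pigs. Obese replicate 3 reached the control range for both. CIITA overlapped too in the marker-bearing clusters alone, where 2 genes lay below.

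Of 20 interferon-stimulated genes, all were measured and 5 tested, with 3 below in obese pigs, or 2 in the marker-bearing clusters alone, and a median of -0.93. Of 20 macrophage transcription factors 11 were tested and 3 lay below in obese pigs, namely SPI1, IRF5 and IKZF1. SPI1, the PU.1 factor that sets myeloid fate, was at 46.7, 87.9 and 125 CPM in obese pigs and 171 and 166 CPM in control pigs. RUNX1 overlapped, at 904, 1193 and 1374 CPM in obese pigs and 871 and 913 CPM in control pigs. So did MITF, a factor of lysosome genes, at 615, 1154 and 673 CPM in obese pigs and 707 and 516 CPM in control pigs. SPI1 was the 1 factor that lay below in the marker-bearing clusters alone, where MAF, MITF and RUNX1 lay above.

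The resident list as a whole did not stand apart. Of 25 genes 22 were measured and 12 tested, none had all obese pigs above and 2 (MRC1 and TXNIP) had all below, and the median log2 fold change was 0.01. RBPJ, a factor of the Notch pathway, was at 644, 1931 and 895 CPM in obese pigs and 1088 and 1512 CPM in control pigs. Of 26 inflammatory genes 23 were measured and 8 tested, all with overlapping groups and a median of -0.36. NFKBIZ, a regulator of NF-kB targets, was at 798, 421 and 222 CPM in obese pigs and 342 and 479 CPM in control pigs. In the marker-bearing clusters alone 3 resident genes lay above in obese pigs (the rule gene F13A1, MAF and MERTK) and 1 below (TXNIP), while 1 inflammatory gene lay below (NFKBIZ).

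Lipid and lysosome genes outside the rule included the list members nearest to a call on the higher side. Of 25 listed, 24 were measured and 11 tested, and CTSD and LGALS3 had all obese pigs above both control pigs. CTSD, a lysosomal protease, was at 214, 246 and 104 CPM in obese pigs and 31.1 and 27.7 CPM in control pigs, at a log2 fold change of 2.73. LGALS3, a lectin of activated macrophages, was at 96.9, 173 and 69.4 CPM in obese pigs and 7.77 and 9.22 CPM in control pigs, at 3.78, each with an adjusted p of 0.085 in edgeR. Foam-cell nuclei held LGALS3 at 295, 793 and 693 CPM. ABCA1, which exports cholesterol, overlapped at 544, 529 and 583 CPM in obese pigs and 637 and 175 CPM in control pigs. In the marker-bearing clusters alone 5 of the 11 genes lay above in obese pigs, with ABCA1, ABCG1 and MITF added to CTSD and LGALS3.

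None of the stress and hormone response genes was called in edgeR. Of 25 immediate early and heat shock genes 15 were tested, 3 had all obese pigs above (20%, near the share of all genes) and the median was 0.43. In the marker-bearing clusters alone 2 lay above and 2 below, and EGR1 changed sides. HSPH1, a heat shock protein, was at 217, 1111 and 354 CPM in obese pigs and 31.1 and 101 CPM in control pigs, and FOS overlapped at 486, 251 and 742 CPM in obese pigs and 443 and 360 CPM in control pigs. Of 12 glucocorticoid response genes 7 were tested and 3 had all obese pigs above, or 1 in the marker-bearing clusters alone. ZBTB16, a transcription factor induced by glucocorticoids, was at 3000, 1665 and 1866 CPM in obese pigs and 886 and 857 CPM in control pigs. It overlapped in the marker-bearing clusters, at 1065, 605 and 886 CPM in obese pigs and 692 and 391 CPM in control pigs, and FKBP5 overlapped in all members. Of 5 tested genes of hypoxia and glycolysis, HIF1A alone lay above, at 522, 214 and 319 CPM in obese pigs and 109 and 166 CPM in control pigs. Of 4 tested matrix genes, TIMP3 and FN1 lay above in obese pigs. HIF1A and FN1 overlapped in the marker-bearing clusters alone.

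The remaining lists had few tested genes. Of 3 dendritic genes, CADM1 lay above in obese pigs and WDFY4 and FLT3 overlapped. Of 3 complement genes, C3 lay above, ITGAM below, and C5AR1 overlapped at 57.4, 185 and 104 CPM in obese pigs and 187 and 120 CPM in control pigs. Of 2 sterol synthesis genes, SREBF2 lay below, at 32.3, 80.8 and 97.1 CPM in obese pigs and 202 and 129 CPM in control pigs. The growth factor genes PDGFC and TGFB1 and the monocyte gene VCAN overlapped. None of the 11 measured proliferation genes passed the filter.

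Against the other nuclei and the foam-cell nuclei the members are described without a test, since the rule drew that line. The leading genes of members over all other nuclei were TBXAS1, TGM3, MRC1, CD163, CD86, CD53, CSF1R, EMILIN2, FRMPD4 and HLA-DRA. TBXAS1 averaged 517 CPM in members and 4.78 CPM in the rest, and MRC1 234 CPM in members and 3.71 CPM in the rest, as means over the 5 libraries. Within the obese pigs, MRC1 averaged 116 CPM in members and 8.84 CPM in foam-cell nuclei, and HPGD 174 CPM in members and 8.35 CPM in foam-cell nuclei. CYP7A1, known as the rate-limiting enzyme of bile acid synthesis in liver, averaged 52.2 CPM in members and 614 CPM in foam-cell nuclei. ENPP1 averaged 236 CPM in members and 1145 CPM in foam-cell nuclei, and LGALS3 113 CPM in members and 594 CPM in foam-cell nuclei.

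Whether the diet effect in members differed from that in all other nuclei was tested as an interaction. Of 18090 genes 440 were called in edgeR (2.43%), 220 with a positive and 220 with a negative difference (1.22% each). The median over all genes was 0.62 on the log2 scale, so values are to be read relative to that shift. The other nuclei held 1325 foam-cell nuclei in obese and 0 in control libraries. All 17 rule genes were in the table and 8 of them among the 440. Their values are shaped by the rule and are no test, and the rule also placed the foam-cell nuclei, which only obese pigs had, among the other nuclei. With foam-cell nuclei left out of the other nuclei, 322 genes were called, of which 294 were among the 440. For FRMD4A the difference was 3.25 and for PDE3A 2.81, and in the other nuclei alone 1 of 20246 genes was called. Leaving out obese replicate 1, 2 or 3 left 98, 91 and 850 called genes, and leaving out control replicate 1 or 2 left 269 and 315.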

How the data were processed

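The authors deposited unnormalized UMI counts for each gene and barcode, made with Cell Ranger. Its version is 5.0 per the submitters' processing notes and 7.1.0 per the file headers. The notes also name Seurat 5.0 and pig build Sscrofa11. The matrices held 45580 barcodes and 35670 features, of which 17508 had a symbol in the files and 223 took one from a gene table. Nuclei with under 300 genes (75) were left out. Doublets were not removed in the main analysis, since Scrublet's automatic threshold marked 2 nuclei. An alternative removed the 3517 nuclei with the highest scores, 70 of them members.

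The members and the gene lists were chosen with earlier results of these data known. For each pig the counts of its member nuclei were added up. The diets were compared in R 4.3.3 with edgeR 4.0.16 (glmQLFit and glmQLFTest), with TMM factors, filterByExpr and Benjamini-Hochberg adjustment over all genes tested. DESeq2 1.42.0 and limma 3.58.1 (voom) were alternatives. The interaction model had the pig as a block, and compared members with all other nuclei of the same pig. A lone control pig, where the other was left out, was taken to vary like the obese group. Shares and the MRC1 to OLR1 ratio were tested by exact permutation over the 10 assignments of pigs. CPM are counts per 1000000 UMIs summed over the nuclei described, and a group at 0 was set at 3 counts over the group for a bound on the fold. The edgeR diet comparison was also run on simulated counts with known changes, where 3314 genes were tested. It called 42 of 91 genes changed 4-fold (46.2%) and 85 of 86 changed 16-fold (98.8%), with 6 false calls. A 4-fold change would thus often be missed. The simulated counts were drawn per gene and pig, so no single nucleus set a level in them. They also held far more changed genes than were called in the members. The recovered shares may therefore be too high for the members, also at 16-fold.

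Members were clustered in scanpy 1.11.5 (Python 3.11.15, numpy 2.4.6, scipy 1.17.1, igraph 0.11.9) on 2000 variable genes, 20 principal components and 15 neighbours at a resolution of 0.8. Named genes were the rule, profile and marker genes. To these were added the 12 called genes of largest rise and of largest fall without overlap between groups, filled to 6 by p. From each list came up to 4 called members, or the 2 of highest mean CPM. Of the interaction, the 6 called genes of smallest p in each direction were taken, and of members or clusters the 10 leading genes by ratio. Other list members are named where they show a count, and were chosen after their values were seen. Replicate numbers were taken not to pair pigs, since nothing in the labels does so.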

Additional observations from a re-analysis of the deposited data

Results flagged for a closer look

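Listed here are 12 genes, the 6 of smallest p in each direction, for the difference in diet effect between members and all other nuclei. In edgeR each had an adjusted p of 4.97e-06 or less. CD163, SLC11A1 and CD83 chose the members, so for them that p is no test and the values are a description. The other nuclei are those the rule left, foam-cell nuclei included, which bears on the other macrophage genes too. The values are differences of log2 fold changes, against a median of 0.62 over all genes, or 0.45 with DESeq2 size factors, and what lies behind them was not tested.

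The macrophage genes had lower differences. CD163 had -5.69, SLC11A1 -6.18, VSIG4, a complement receptor of resident macrophages, -6.64, ATP8B4 -4.74, CD86 -4.38 and CD83 -4.34. In members the groups overlapped for all of these but SLC11A1, and VSIG4 was at 93.3, 251 and 69.4 CPM in obese members and 210 and 55.3 CPM in control members. In the other nuclei, which in obese pigs include the foam-cell nuclei, VSIG4 was at 14.2, 99.3 and 4.97 CPM in obese and 0.168 and 0.234 CPM in control libraries. With foam-cell nuclei left out of the other nuclei the 6 values ran from -4.52 to -2.51.

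On the positive side stood PDE3A with 2.81, FRMD4A with 3.25, ANKH with 4.35, TBC1D4 with 3.11, CDH13 with 2.83 and ZDHHC14 with 13.75. TBC1D4, which controls glucose transporter traffic, was at 366, 453 and 1075 CPM in obese members and 85.5 and 138 CPM in control members. Its level in the other nuclei was 249, 319 and 162 CPM in obese and 284 and 380.4 CPM in control libraries. CDH13, a cadherin, was at 1206, 466 and 520.3 CPM in obese members and 62.2 and 175 CPM in control members, and its value was 1.63 (adjusted p = 0.388 in edgeR) in clusters 1, 3, 4, 5 and 7 alone. ZDHHC14 had 0 counts in control members and 71.8, 17.8 and 402 CPM in obese members, so its fitted value depends on the prior count and is no bound. When members with markers of other lineages were left out, PDE3A stood at 1.73 (adjusted p = 0.315 in edgeR), TBC1D4 at 1.63 (0.525) and CDH13 at 2.16 (0.258), and ZDHHC14 had an adjusted p of 0.235. With at least 4 macrophage markers, TBC1D4 stood at 2.30 (adjusted p = 0.0621 in edgeR) and CDH13 at 1.79 (0.301), and ZDHHC14 had an adjusted p of 0.143. FRMD4A and ANKH kept an adjusted p under 0.05 in both.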

How the results depend on the processing

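The 9 genes called by diet in members became 278 with no filter on low counts, 104 with DESeq2, 4 with limma-voom, 14 without members marked for other lineages (7 of the 9 among them) and 53 with foam-cell nuclei included (8 of the 9). None was called with at least 4 markers (0, against 288 at an unadjusted p under 0.05 in edgeR), doublets removed (0, 442), no foam-cell gene allowed (0, 455) or clusters 1, 3, 4, 5 and 7 only (0, 362). Leaving out 1 pig gave 0 to 9. DESeq2 size factors gave 9 and the 4 more restricted markers 7. The interaction count of 440 became 164 with at least 4 markers, 272 with doublets removed, 109 without other lineages and 144 in those clusters only (130 of the 440), and ran from 91 to 850 without 1 pig. The causes were not tested. OLR1 turned to 1.70 (adjusted p = 0.532 in edgeR) without control replicate 1, within -2.45 to 1.70 over the fits without 1 pig. All 9 genes, among them the rule gene MCOLN3, kept their direction wherever they were tested. The mean differences in share and in the MRC1 to OLR1 ratio kept their direction in all 15 and 16 alternatives. The shares of single pigs did not stay apart in all of them. With no foam-cell gene allowed, obese replicate 3 (0.265%) lay below control replicate 2 (0.421%). With at least 1 of the 4 more restricted markers it did so too (0.398 against 0.404%). Clusters and alternatives with foam-cell nuclei were added after the data were seen.

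With the replicate number as a block, 0 genes were called by diet in edgeR (539 at an unadjusted p under 0.05, smallest adjusted p 0.0591). Deviations of same-numbered pigs from their group means had a correlation of 0.0099 for number 1 and -0.0148 for number 2. With 2 control pigs the deviations of 1 mirror those of the other, so these values are not independent. They cannot show whether same-numbered pigs share more than a number. The 51 control members limit what can be seen: with 108474 UMIs in control replicate 2, 1 count is 9.22 CPM.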

Other observations

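Signs of cell division were highest in control replicate 1 and sat almost wholly in 1 nucleus there. The 11 measured proliferation genes summed to 50.2, 108 and 48.6 CPM in obese members and 1267 and 83.0 CPM in control members. In control replicate 1, 158 of the 163 counts came from 1 nucleus of cluster 7, which had UMIs of all 11 genes. Members with at least 3 of these genes numbered 0, 2 and 0 in obese pigs and 1 and 0 in control pigs. Of the 91 counts of obese replicate 2, 21 came from 1 nucleus with 6 of the genes.

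Heat shock genes were high in the resident-macrophage-like cluster 3 of obese replicate 2, and in the 7 nuclei of its cluster 7, where HSP90AA1 was at 4439 CPM. HSP90AA1 was at 544, 4793 and 574 CPM in the members of cluster 3 from obese replicates 1 to 3 and 205 and 478 CPM in those from control pigs. HSPH1 was at 167, 2985 and 574 CPM in the obese members of cluster 3 and 0 and 53.1 CPM in the control members. In obese replicate 2 these values came from 76 nuclei, of which 60 had a UMI of HSP90AA1, while obese replicate 3 had 3 nuclei and 1 count of each gene.

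Single nuclei also set the level of genes that lead the members. TGM3, a transglutaminase, was at 248, 0 and 0 CPM in obese members and 15.5 and 802 CPM in control members, and 1 nucleus held all 87 counts of control replicate 2. SERPINB2, an inhibitor of plasminogen activators, had 0 counts in the obese members. It was at 412 CPM in control replicate 1, where 1 nucleus held 96.2% of the counts, and had 0 counts in control replicate 2.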
